A study of Caenorhabditis elegans with 4 samples.

Results

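The cytosolic ribosomal protein genes of the nematode Caenorhabditis elegans are described here, in whole worms fed 2 different bacterial foods. They were found by name in the deposited gene tables: symbols that begin with rpl or rps followed by a number, plus rla-0, rla-1 and rla-2. The rule gave 79 of 46904 genes, of which 45 are rpl genes (named for the large subunit), 31 are rps genes (named for the small subunit) and 3 are rla genes (the acidic stalk of the large subunit). All 79 are annotated as protein coding in the Ensembl annotation of the same build. The names were set against the gene ontology terms of the tables, where 77 of the 79 carried the term for a structural constituent of the ribosome. The other 2, rla-2 and rpl-42, carried the broader term for the ribosome.

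The ribosome is built of a large and a small subunit, each a core of ribosomal RNA with many small, mostly basic proteins. Nearly every one of these proteins is present in a single copy per ribosome, and their mRNAs are among the most abundant of growing cells. In many animals their translation is controlled by the nutrient-sensing TOR kinase, which is why food is a common setting for measuring them.

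Poly(A) RNA was sequenced from wild-type Bristol N2 hermaphrodites, about 200 worms in each group. One group was labelled OP50 + MH-1, where MH-1 is a Lactiplantibacillus strain (a lactic acid bacterium), and the other was labelled OP50, the Escherichia coli strain used as standard laboratory food. Each had 2 libraries. The labels conflict on the feeding, with 4-day-old worms fed for 1 day in one text and 1-day-old worms cultured for 2 days in another, and on whether MH-1 was given with or without OP50. No label ties the replicates to separate cultures. The p-values therefore rest on how far these libraries lie apart, which may reflect technical variation alone.

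Groups follow the sample titles. The count column of each of the 4 tables is headed with the name of the opposite food, so each direction below turns round, with the same size and p-value, if the headers are right. Total counts were 15771890 and 21572225 in the OP50 + MH-1 libraries and 18485858 and 17593775 in the OP50 libraries. Of 12640 genes tested over the whole table with the quasi-likelihood test of edgeR, 272 had a Benjamini-Hochberg adjusted p under 0.05. Among the marker lists, 4 of 15 embryo genes and 5 of 9 tested epidermis and molting genes were called higher in OP50 + MH-1, as was 1 of 8 muscle genes, pat-10. A negative log2 fold change was found in 3 of the 15 embryo genes and 2 of the 9 epidermis and molting genes. The lists were chosen with earlier results of these data known, so these call counts are a description only. The embryo list summed to 423 and 386 CPM (read counts scaled to the library size, with TMM factors) in OP50 + MH-1 and to 257 and 228 CPM in OP50. The epidermis and molting list summed to 625 and 550 CPM in OP50 + MH-1 and to 403 and 329 CPM in OP50. No germline (17), intestine (9) or neuron (8) marker was called, nor was msp-31, the 1 sperm marker of 7 with enough reads to test. An unadjusted p under 0.05 (edgeR) was found for 3 germline, 4 intestine and 0 neuron markers, against 14.1% of all tested genes. Both OP50 + MH-1 libraries were below both OP50 libraries in 15 of the 17 germline markers, against 21.6% of all tested genes.

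No ribosomal protein gene was called different between the foods. Of the 79 genes, 78 had enough reads to be tested, and 0 of them passed, where 2.15% of all tested genes did. DESeq2 and limma-voom also called 0. At an unadjusted p under 0.05 there were 2 of 78, rpl-41.1 and rpl-11.2, with each of the 3 tools, against 14.1% of all tested genes with edgeR. The smallest adjusted p among the 78 was 0.233 (edgeR), for rpl-41.1. Without the filter on low counts, edgeR called these same 2 genes higher, at adjusted p values of 0.0157 for rpl-41.1 and 0.00301 for rpl-11.2, where 5.63% of the 19744 genes in that fit were called.

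The log2 fold changes of OP50 + MH-1 over OP50 were small and narrowly spread. They ran from -0.16 (rpl-2) to 0.57 (rpl-41.1), with a median of 0.018 over the 78 genes, against 0.0027 over all tested genes. The lower and upper quartiles were -0.011 and 0.066 for the ribosomal protein genes, against -0.13 and 0.23 for all tested genes. The log2 fold change was under 0.2 in size in 75 of the 78 genes, against 56.1% of all tested genes. Standard errors ran from 0.084 to 0.189. The 95% interval of the log2 fold change stayed inside a 1.5-fold difference in either direction for 75 genes, against 47.6% of all tested genes. The 3 whose interval reached that bound were rpl-41.1, rpl-11.2 and rpl-24.2. The values over all tested genes were not matched for level. The median level per length (TPM) was 2162 in the ribosomal protein genes, against 16.03 over all tested genes. The part of level in these contrasts was not tested.

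**Figure D1:**
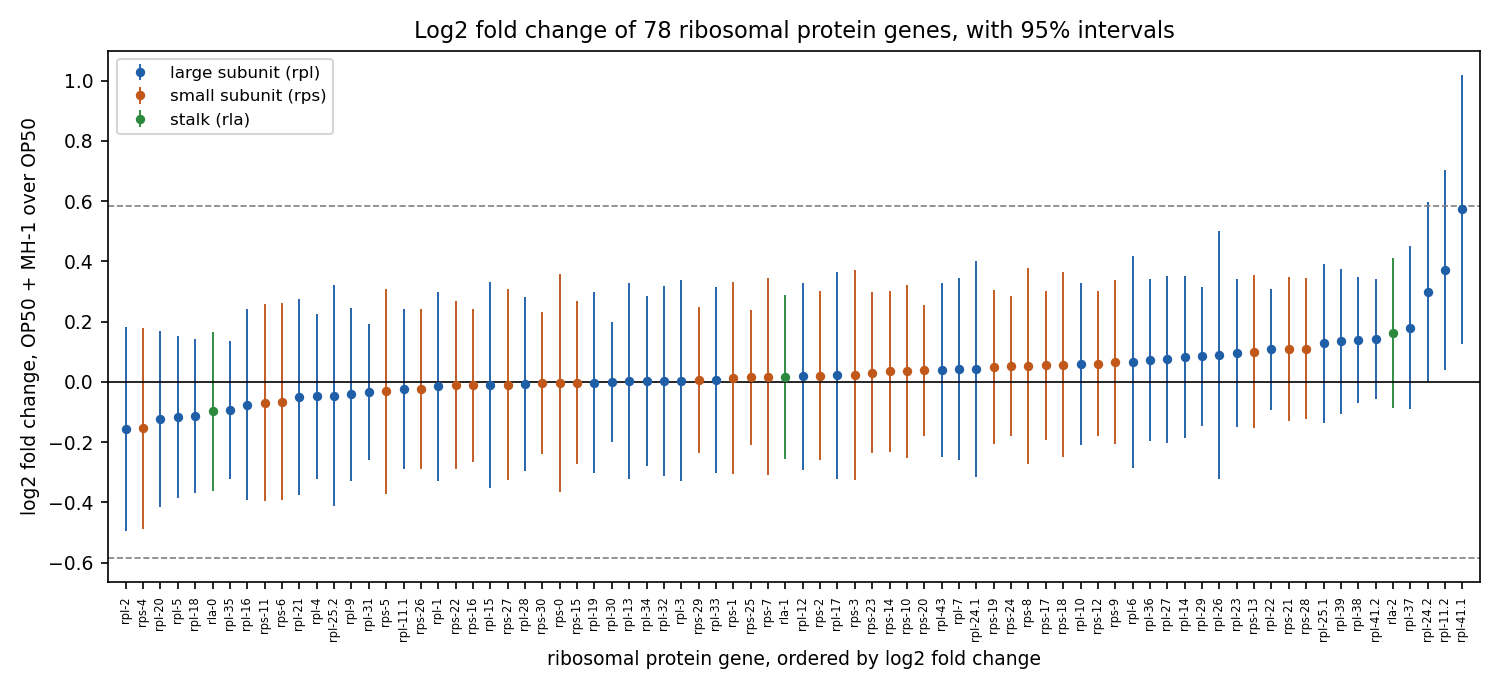
Log2 fold change of OP50 + MH-1 over OP50 (vertical axis) for the 78 tested ribosomal protein genes, ordered from lowest to highest along the horizontal axis; bars are 95% intervals (edgeR, n = 2 libraries per group), dashed lines mark a 1.5-fold difference and colours mark the subunit. The values form a flat band around 0 from rpl-2 at -0.16 upward, and only the intervals of rpl-24.2, rpl-11.2 and rpl-41.1 reach the dashed line.

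A positive log2 fold change was found for 49 genes (62.8%, against 50.4% of all tested genes) and a negative one for 29. This balance changed with the library left out. Without OP50 + MH-1 replicate 1 it was positive in 14 genes and the median was -0.083. Without OP50 replicate 2 it was positive in 19 genes, with a median of -0.073. Leaving out OP50 + MH-1 replicate 2 gave a median of 0.13, and leaving out OP50 replicate 1 gave 0.12. Only 17 of the 78 genes kept the sign of their log2 fold change whichever library was left out. In both foods nearly all of these genes were higher in replicate 1, and such fits set unequal replicate numbers against each other. The median log2 CPM, centred on each gene's mean, was 0.12 (OP50 + MH-1) and 0.075 (OP50) in replicate 1. In replicate 2 it was -0.091 and -0.098. The part of replicate number in the sign changes was not tested.

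Libraries of the same food differed more in these genes than the foods did. The 79 genes took 10.4% of all counts in OP50 + MH-1 replicate 1 and 8.91% in replicate 2, against 9.77% in OP50 replicate 1 and 8.90% in replicate 2. The groups overlapped: the 2 libraries at 8.91% and 8.90% carry different labels. The means were 9.64% ± 1.03 for OP50 + MH-1 and 9.34% ± 0.619 for OP50 (SD, n = 2 each). An exact two-sided permutation test gave p = 0.667, and with 2 libraries against 2 it cannot go below 0.33. The 95% Clopper-Pearson intervals of the shares are narrow, at 10.3% to 10.4% and 8.90% to 8.92% for OP50 + MH-1 and 9.76% to 9.79% and 8.89% to 8.91% for OP50. They cover counting error only.

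Nearly all genes of the set took part in this spread. Within OP50 + MH-1, 75 of the 78 were higher in replicate 1 than in replicate 2 by CPM, with a median log2 difference of 0.20. Within OP50, 77 of the 78 were higher in replicate 1, with a median of 0.17. Over all tested genes the same medians were 0.0059 and 0.0077, and 51.0% and 51.5% of genes were higher in replicate 1. For 70 of the 78 genes the mean difference between libraries of one food was larger than the difference between the foods, against 54% of all tested genes.

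**Figure D2:**
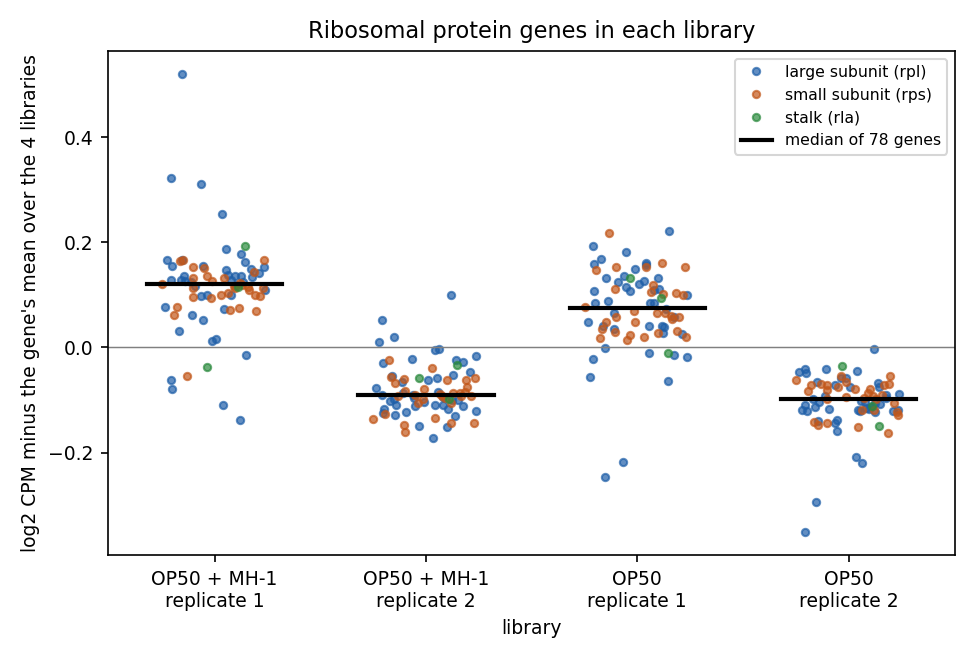
Each point is 1 of the 78 tested ribosomal protein genes in 1 library, as its log2 CPM (pseudocount 0.5) minus the gene's mean over the 4 libraries; black bars are medians. The medians are 0.12 and -0.091 in the OP50 + MH-1 libraries and 0.075 and -0.098 in the OP50 libraries, so the cloud moves as a whole between replicates of each food.

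The library with the highest share had the lowest total count, and OP50 replicate 1 had a higher total than OP50 replicate 2. The part of depth in this spread was not tested. The intestine markers, a list that includes the yolk protein genes vit-2 and vit-6, summed to 30313 and 50592 CPM in OP50 + MH-1 replicates 1 and 2 and to 44167 and 46921 CPM in OP50 replicates 1 and 2. They were lowest in the library where the ribosomal protein share was highest. With vitellogenins removed from the denominator the share was 10.8% and 9.58% in OP50 + MH-1 and 10.4% and 9.48% in OP50. Germline markers summed to 16377 and 17028 CPM in OP50 + MH-1 and to 19386 and 19194 CPM in OP50. Of these markers 17 of 17 had a negative log2 fold change, where 50.4% of all tested genes had a positive one. The part of these tissues in the values was not tested, and in RNA from whole worms fewer cells of a type cannot be told apart from less RNA per cell.

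The subunits kept their proportion. The rps genes together had 0.723 and 0.724 times the summed CPM of the rpl genes in OP50 + MH-1, and 0.717 and 0.725 times in OP50. The OP50 + MH-1 values lie within the range of the OP50 values (exact two-sided permutation p = 1.0).

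Levels per length differed far more between genes than between foods. TPM, here computed from the counts and the gene lengths in the tables, averaged over the 4 libraries ran from 10853 for rpl-25.2 to 71.7 for rpl-41.1 among the tested genes, a ratio of 151. The median was 2162 TPM, against 16.03 TPM over all tested genes. Of the 100 genes with the highest mean TPM in the tables, 55 were ribosomal protein genes. The 79 genes made up 20.8% and 18.9% of TPM in OP50 + MH-1 and 20.5% and 18.9% in OP50.

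The gene rpl-25.2 encodes a large-subunit protein beside the exit of the peptide tunnel, where the signal recognition particle docks. It had 11385 and 10006 TPM in OP50 + MH-1 and 11355 and 10664 TPM in OP50, and the groups overlapped. Next in mean TPM came rps-8 and rpl-6, proteins of the small and the large subunit, at 6704 and 6580. They were followed by rps-3, at the mRNA entry channel, with 6495 and rpl-17, also near the tunnel exit, with 6215. In rps-8 the values were 7101 and 6573 TPM in OP50 + MH-1 and 6645 and 6496 TPM in OP50, so that the order of these 4 genes is closer than the spread between libraries. At the other end, 4 tested genes stood under 500 TPM: rpl-25.1, rpl-24.2, rpl-37 and rpl-41.1. The gene rpl-42 had 2 reads in OP50 + MH-1 replicate 2 and 0 in the other 3 libraries. A level of 3 reads, between 0.138 and 0.186 CPM in these libraries, marks what a count of 0 allows.

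**Figure D3:**
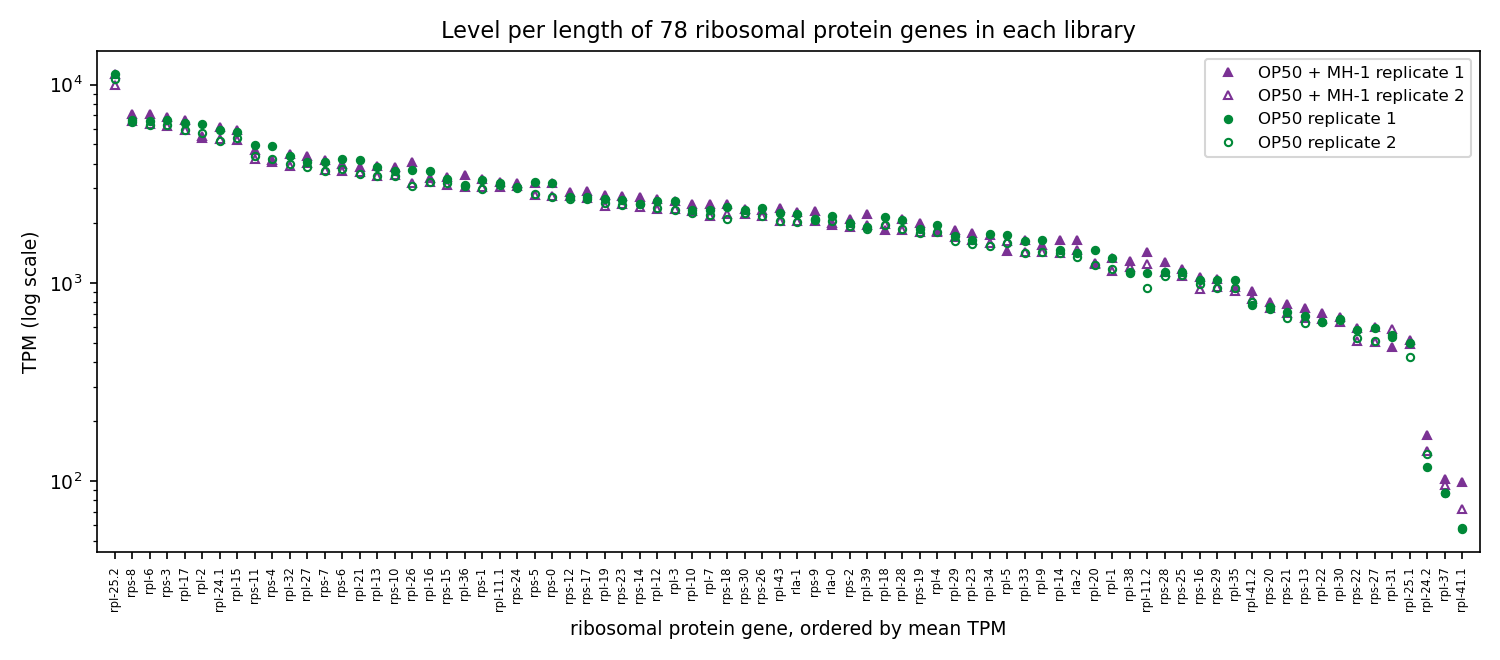
TPM on a log axis in each of the 4 libraries for the 78 tested ribosomal protein genes, ordered by mean TPM; triangles are OP50 + MH-1, circles OP50, and filled and open symbols are replicates 1 and 2. From rpl-25.2 at a mean of 10853 TPM there is a step down to rps-8 at 6704, and the levels then decline in smaller steps to rpl-25.1 at 481. Below it, rpl-24.2, rpl-37 and rpl-41.1 stand apart at 141.9, 93.1 and 71.7.

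The tables hold 4 sets of paralogs whose names differ only after the point. In each set the copy with fewer reads (rpl-11.2, rpl-24.2, rpl-25.1 and rpl-41.1) had the higher log2 fold change of OP50 + MH-1 over OP50. None of the 8 genes was called in the main fit. The sources used here do not say how reads that fit several places were handled, so the split of reads between near-identical copies is uncertain.

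The protein encoded by the rpl-11 genes binds the 5S ribosomal RNA together with that of rpl-5. The copy rpl-11.2 (ce11, chromosome X, 2241738 to 2242618) had 797 and 661 CPM in OP50 + MH-1, against 628 and 499 CPM in OP50. Both OP50 + MH-1 libraries were above both OP50 libraries. The log2 fold change stood at 0.37 ± 0.14 (SE, 95% interval 0.039 to 0.70). With an adjusted p of 0.305 (edgeR) it did not pass in the main fit. It was called by edgeR without the filter on low counts (adjusted p = 0.00301). With replicate number as a further term it was also called (adjusted p = 0.0156, edgeR), but the replicate numbers share no stated source. The other copy, rpl-11.1 (chromosome V, 3585313 to 3586064), had 1602 and 1446 CPM in OP50 + MH-1 and 1605 and 1492 CPM in OP50. The groups overlapped and the log2 fold change was -0.024 ± 0.11 (SE). Of the reads of the pair, rpl-11.2 took 33.2% (95% Clopper-Pearson interval 32.8 to 33.7) and 31.4% (30.9 to 31.8) in OP50 + MH-1. In OP50 it took 28.1% (27.7 to 28.6) and 25.07% (24.6 to 25.5). The groups did not overlap in this share, and the exact two-sided permutation p was 0.33, the smallest that 2 libraries against 2 allow. Leaving out 1 library at a time, the log2 fold change of rpl-11.2 ran from 0.21 to 0.54 with adjusted p values of 0.0739 to 0.755 (edgeR).

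The rpl-41 protein is a very short basic peptide of the large subunit. Both its genes lie next to each other on chromosome I on the same strand, 699 bases apart, rpl-41.1 from 4789190 to 4789592 and rpl-41.2 from 4790292 to 4790649. The gene rpl-41.1 had 24.9 and 17.5 CPM in OP50 + MH-1, against 14.5 and 14.0 CPM in OP50. Replicate 1 of OP50 + MH-1 was the high library, and both OP50 + MH-1 libraries lay above OP50. The log2 fold change was 0.57 ± 0.19 (SE), with a 95% interval of 0.13 to 1.02, the widest of the set. It ran from 0.30 to 0.81 when each library was left out in turn, with adjusted p values of 0.0641 to 0.701 (edgeR). The gene rpl-41.2 had 198 and 174 CPM in OP50 + MH-1 and 169 and 168 CPM in OP50, a log2 fold change of 0.14 ± 0.084 (SE). Of the pair's reads rpl-41.2 took 88.8% and 90.9% in OP50 + MH-1 and 92.1% and 92.3% in OP50.

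The gene rpl-24.1 encodes the L24 protein of the large subunit, while rpl-24.2 is related to a human factor that holds the place of that protein during assembly of the subunit. In rpl-24.2 (chromosome I, 9669415 to 9670098) the values were 75.9 and 60.2 CPM in OP50 + MH-1, against 52.4 and 58.1 CPM in OP50. The lower OP50 + MH-1 library and the higher OP50 library nearly touch. The log2 fold change stood at 0.30 ± 0.13 (SE), and its adjusted p was 0.356 (edgeR). Leaving out each library in turn gave 0.13 to 0.46, with adjusted p values of 0.0979 to 0.797 (edgeR). In rpl-24.1 the values were 2545 and 2117 CPM in OP50 + MH-1 and 2477 and 2049 CPM in OP50, with overlapping groups and a log2 fold change of 0.043. The share of rpl-24.2 in the pair's reads was 2.90% and 2.76% in OP50 + MH-1 and 2.07% and 2.76% in OP50.

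The genes rpl-25.1 and rpl-25.2 encode forms of the same tunnel-exit protein. The lesser copy rpl-25.1 (chromosome X, 4715178 to 4715801) had 196 and 178 CPM in OP50 + MH-1 and 189 and 153 CPM in OP50. The groups overlapped, and the log2 fold change was 0.13 ± 0.11 (SE). The greater copy rpl-25.2 took 95.8% and 95.5% of the pair's reads in OP50 + MH-1 and 96.0% and 96.3% in OP50, and had a log2 fold change of -0.046 ± 0.15 (SE).

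**Figure D4:**
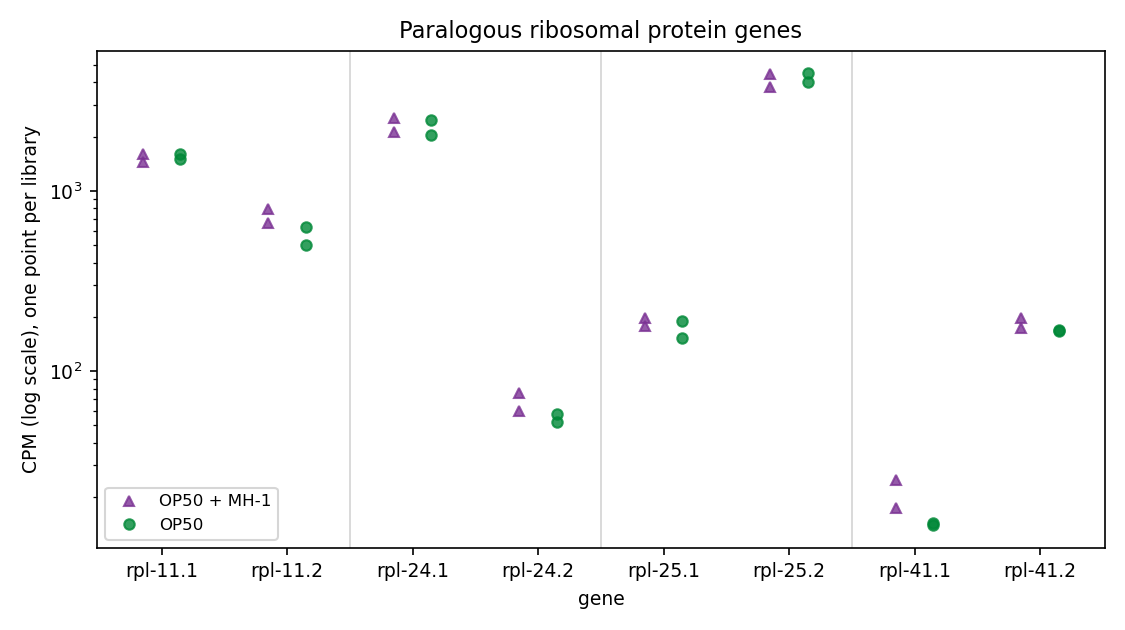
CPM on a log axis, 1 point per library, for the 4 sets of paralogs; triangles are OP50 + MH-1 and circles OP50. The higher copy of each set has overlapping groups except rpl-41.2, while rpl-11.2, rpl-24.2 and rpl-41.1 have both OP50 + MH-1 libraries above both OP50 libraries. None of the 8 genes was called in the main fit.

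The stalk proteins recruit the translation GTPases to the ribosome: rla-0 forms its base, and rla-1 and rla-2 bind to it as dimers. The gene rla-0 had 1534 and 1513 CPM in OP50 + MH-1 and 1726 and 1536 CPM in OP50, a log2 fold change of -0.098 ± 0.11 (SE). Its groups did not overlap, although OP50 + MH-1 replicate 1 and OP50 replicate 2 were almost level. The gene rla-1 had 782 and 674 CPM in OP50 + MH-1 and 770 and 669 CPM in OP50, with a log2 fold change of 0.018 and overlapping groups. The gene rla-2 had 565 and 483 CPM in OP50 + MH-1 and 491 and 445 CPM in OP50, with a log2 fold change of 0.16 ± 0.11 (SE). The lower OP50 + MH-1 library of rla-2 was below the higher OP50 library.

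At the low end of the list stood rpl-2, a protein at the peptidyl transferase centre, and rps-4 of the small subunit. The gene rpl-2 had 3579 and 3507 CPM in OP50 + MH-1, against 4272 and 3633 CPM in OP50, a log2 fold change of -0.16 ± 0.14 (SE). Its groups did not overlap, but the OP50 libraries differed from each other by more than the lower of them differed from OP50 + MH-1. The gene rps-4 had 2609 and 2541 CPM in OP50 + MH-1 and 3152 and 2581 CPM in OP50, with a log2 fold change of -0.15 ± 0.14 (SE) and overlapping groups. The next 3 were rpl-20 at -0.12, rpl-5 at -0.12 and rpl-18 at -0.11, all large-subunit proteins. In each of these 5 genes OP50 replicate 1 was the highest of the 4 libraries.

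Across the set, both OP50 + MH-1 libraries were above both OP50 libraries in 6 of 78 genes, against 24.4% of all tested genes. Both were below in 2 of 78, against 21.6% of all tested genes. The 6 were rpl-11.2, rpl-24.2, rpl-37, rpl-38, rpl-41.1 and rpl-41.2. The 2 were rla-0 and rpl-2. The gene rpl-37, a zinc-binding protein of the large subunit, had 27.5 and 24.7 CPM in OP50 + MH-1 and 23.5 and 22.5 CPM in OP50, a log2 fold change of 0.18 ± 0.11 (SE). In the remaining 70 genes the groups overlapped.

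Shorter genes of the set tended to have the higher log2 fold change, a pattern noticed after the values were seen. Across the 78 genes the log2 fold change and the log2 length had a Pearson r of -0.44 and a Spearman rho of -0.50, and without rpl-41.1 and rpl-11.2 these were -0.51 and -0.51. Among 6647 other tested genes within the same range of lengths (236 to 1458 bases) they were -0.028 and -0.082. With log2 mean CPM, the log2 fold change had a Pearson r of -0.60 and a Spearman rho of -0.44. With log2 mean TPM these were -0.54 and -0.27. The genes share libraries, so no p is given. The 39 genes of up to 543 bases had a median log2 fold change of 0.048, and the 39 longer ones 0.0028. Among the other tested genes of those lengths the medians were 0.10 and 0.030. The shorter ribosomal protein genes had a median centred log2 CPM of 0.13 and -0.082 in OP50 + MH-1 and 0.049 and -0.11 in OP50, so the groups overlapped. RNA quality and fragment size were not measured in these files, and their part was not tested.

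**Figure D5:**
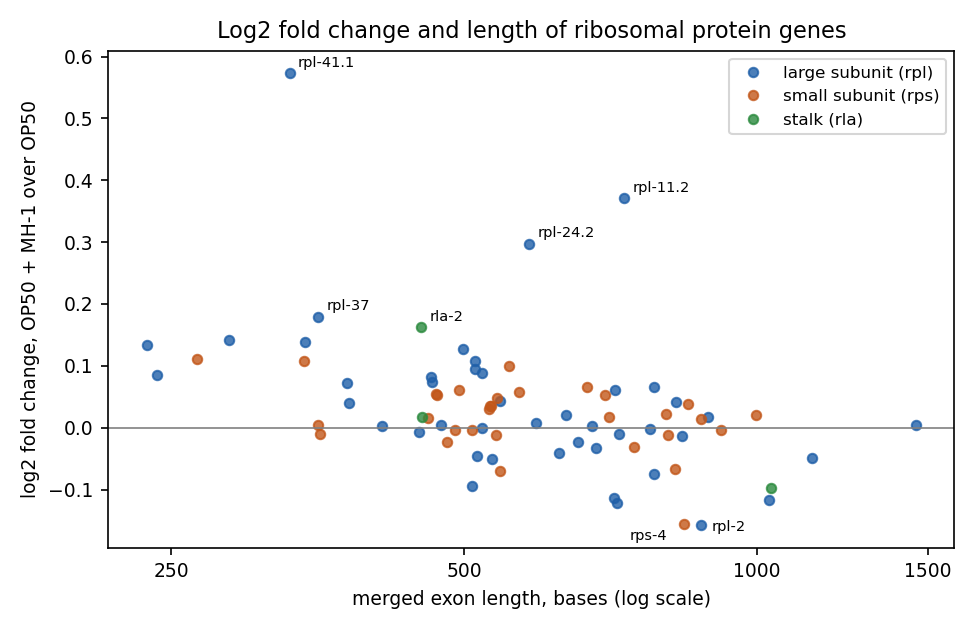
Log2 fold change of OP50 + MH-1 over OP50 (vertical axis) against merged exon length in bases (log axis) for the 78 tested ribosomal protein genes, coloured by subunit. The shortest genes lie mostly above 0 and rpl-2, rps-4 and rla-0 among the longer ones lie below it, with rpl-41.1, rpl-11.2 and rpl-24.2 above the band.

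In the genome the genes are spread over every chromosome but not in the proportion of all genes. Chromosome I holds 25 of the 79 (31.6%, against 14.4% of protein-coding genes), chromosome III holds 18 (22.8%, against 13.2%) and chromosome IV holds 17 (21.5%, against 16.5%). Chromosome V holds 8 (10.1%, against 25.08%) and chromosome X holds 2 (2.53%, against 13.6%). Those 2 on the X are rpl-11.2 and rpl-25.1, each the copy with fewer reads of its pair. Members lie within 5000 bases of each other in 4 places: rpl-41.1 with rpl-41.2, rps-10 with rpl-24.1 on chromosome I, rps-14 with rpl-36 on chromosome III, and rpl-39 with rps-30 on chromosome V. In the last 3 of these the neighbours point away from each other, with 609, 642 and 496 bases between them. Exons of 19 of the 79 genes overlap those of another gene in the tables, and the sources used here do not state the strand setting of the counting.

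Some ribosomal proteins fall outside the name rule. They are rpl-7A, the scaffold protein rack-1 of the small subunit, and ubl-1 and ubq-2, which encode ribosomal proteins made as fusions with ubiquitin or a ubiquitin-like part. Also, rpl-36.A, W01D2.1 and Y37E3.8 were found after the tables were read, all 3 annotated there to the cytosolic large subunit. They are among 11 genes outside the rule that carry a term for a cytosolic subunit. None of the 7 named here was called (edgeR), where 2.15% of all tested genes were. The log2 fold change was -0.10 for rpl-7A, -0.058 for ubl-1, 0.0090 for rack-1, 0.063 for ubq-2, 0.10 for rpl-36.A, 0.14 for W01D2.1 and 0.048 for Y37E3.8. The gene rpl-7A had 907 and 1051 CPM in OP50 + MH-1 and 1065 and 1039 CPM in OP50, so it was lower in OP50 + MH-1 replicate 1 than in replicate 2.

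None of the 194 tested genes in 6 lists of the wider translation machinery was called by edgeR either, where 2.15% of all tested genes were, and DESeq2 and limma-voom also called 0 of them. The lists had between 1 and 4 genes each at an unadjusted p under 0.05, where 14.1% of all tested genes were. Without the filter on low counts edgeR called 6 of the list genes, where it called 5.63% of all genes: pab-2, iff-2 and eef-1A.2 higher, and ifg-1, larp-1 and daf-15 lower. Over all tested genes 50.4% had a positive log2 fold change, the share to set beside the sign counts of the 6 lists. Of 36 initiation factors, 11 lay above 0 on the log2 fold change scale, the median was -0.035, and 1 had an unadjusted p under 0.05. That was pab-2, a poly(A)-binding protein, with 74.6 and 91.9 CPM in OP50 + MH-1 and 63.3 and 63.3 CPM in OP50, a log2 fold change of 0.40 and an adjusted p of 0.159. The scaffold factor ifg-1 had 390 and 518 CPM in OP50 + MH-1 and 570 and 555 CPM in OP50, a log2 fold change of -0.31. Its groups did not overlap, with OP50 + MH-1 replicate 1 as the low library. With OP50 + MH-1 replicate 1 left out, pab-2 stood at 0.54 (adjusted p = 0.0476, edgeR) and ifg-1 at -0.11 (adjusted p = 0.792, edgeR). With OP50 + MH-1 replicate 2 left out instead, pab-2 stood at 0.24 (adjusted p = 0.270, edgeR) and ifg-1 at -0.53 (adjusted p = 0.0490, edgeR).

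Of 8 elongation and termination factors, 3 had a positive log2 fold change (median -0.030) and 1 had an unadjusted p under 0.05. It was eef-1A.2, one of the genes for the factor that brings aminoacyl-tRNA to the ribosome, with 410 and 406 CPM in OP50 + MH-1 and 348 and 329 CPM in OP50. The difference was 0.27 ± 0.077 on the log2 scale (SE, adjusted p = 0.164 with edgeR), while the peptide release factor erfa-1 stood at -0.094. Of 33 aminoacyl-tRNA synthetases, 7 had a positive log2 fold change (median -0.057), with the isoleucyl and tryptophanyl enzymes iars-1 and wars-1 at -0.18 and -0.21. That list had 1 unadjusted p under 0.05. Of 67 mitochondrial ribosomal proteins, which serve a separate ribosome, 44 were positive with a median of 0.036 and 1 unadjusted p under 0.05. Within that list mrpl-23 stood at 0.24 and mrpl-44 at -0.18.

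Of 35 tested ribosome biogenesis genes, 22 had a positive log2 fold change (median 0.060), and 4 had an unadjusted p under 0.05. The nucleolar GTPase gene ngp-1 had 149 and 146 CPM in OP50 + MH-1, against 125 and 121 CPM in OP50. Its log2 fold change stood at 0.27 ± 0.069 (SE), and edgeR gave an adjusted p of 0.136. For rrp-1, whose product takes part in processing of ribosomal RNA, the values were 71.4 and 68.5 CPM in OP50 + MH-1, against 55.3 and 57.3 CPM in OP50, a log2 fold change of 0.31. In both genes the groups did not overlap.

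Of 15 TOR pathway genes, 13 had a negative log2 fold change, with a median of -0.15, and 3 had an unadjusted p under 0.05. Leaving out replicate 1 of OP50 + MH-1 gave a median of -0.095, and leaving out its replicate 2 gave -0.20. The gene larp-1 encodes an RNA-binding protein whose mammalian relative binds mRNAs of ribosomal proteins under TOR control. It had 279 and 374 CPM in OP50 + MH-1, against 519 and 389 CPM in OP50. OP50 replicate 1 was the high library. The log2 fold change stood at -0.48 ± 0.18 (SE), and edgeR gave an adjusted p of 0.292. The gene daf-15, the worm Raptor of TOR complex 1, had 189 and 239 CPM in OP50 + MH-1 and 309 and 248 CPM in OP50, a log2 fold change of -0.38 ± 0.14 (SE). Without OP50 replicate 2, larp-1 stood at -0.67 (adjusted p = 0.0158, edgeR) and daf-15 at -0.53 (adjusted p = 0.0410, edgeR). Without OP50 replicate 1, the high library, they stood at -0.25 (adjusted p = 0.618, edgeR) and -0.21 (adjusted p = 0.664, edgeR). Over all 4 libraries left out in turn, larp-1 ran from -0.70 to -0.25 with adjusted p values up to 0.705, and daf-15 from -0.56 to -0.21 with adjusted p values up to 0.711 (edgeR). In such fits the food with 1 library has no spread of its own, so that of the other food is assumed for both.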

How the data were processed

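Poly(A) RNA libraries were prepared with a stranded kit, per the labels' protocols. The submitters' processing notes name featureCounts 2.0.1, STAR 2.7.10a, cutadapt 3.7, Trim Galore 0.6.7 and Trimmomatic 0.39, with the build ce11 (WBcel235). The sources used here do not state the strand setting or the treatment of multi-mapping reads. The deposited values are raw counts per gene, and coordinates and lengths are those of the deposited tables.

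Counts were analysed with edgeR 4.0.16 in R 4.3.3. Low counts were removed by filterByExpr, given the groups. A gene was kept if at least 2 libraries reached the CPM that a count of 10 has at the median library size. It also needed 15 counts in all. TMM scaling, glmQLFit and glmQLFTest followed, with group as the only term, over 12640 genes. P-values were adjusted by Benjamini-Hochberg, and genes were called under 0.05. Standard errors are the size of the log2 fold change divided by the square root of F. DESeq2 1.42.0 and limma 3.58.1 were alternatives. Exact tests used scipy 1.17.1. On simulated data (12548 genes tested), edgeR recovered 84% of 2-fold and 99% of 4-fold changes. The simulation gave every gene the same biological coefficient of variation, 0.135, and changed no gene of low mean count. Variation that differs between genes was not simulated. Recovery of smaller changes was not tested, nor was recovery where the genes of a set shift together between replicates. In 75 of the 78 ribosomal protein genes the log2 fold change was under 0.2 in size.

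Every pair of libraries differed by more than sampling noise, with a chi-square of 10.1 or more per degree of freedom. Members and lists were chosen with earlier results of these data known. Named genes are the 5 highest and 5 lowest log2 fold changes, the 5 highest and 3 lowest by TPM, the stalk genes, the paralogs, ribosomal proteins outside the name rule, and from each list the 2 with the smallest p. Other genes named, such as rpl-38, rpl-42, rpl-36.A, W01D2.1 and Y37E3.8, were chosen after their values were seen.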

Additional observations from a re-analysis of the deposited data

How the results depend on the processing

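The 78 tested ribosomal protein genes had no call with DESeq2 size factors, total counts, TMM without these genes, DESeq2, limma-voom, robust dispersion, an adjusted p of 0.1, any 1 library left out, or the other ribosomal proteins added. Without the filter, 2 were called, rpl-41.1 (adjusted p = 0.0157) and rpl-11.2 (adjusted p = 0.00301, edgeR). Over all genes, 230 higher and 42 lower calls became 815 and 297 without the filter, 369 and 95 with DESeq2, 135 and 27 with limma-voom, and 99 to 395 and 20 to 95 with 1 library left out. With the replicate block they became 450 and 109, and 1 ribosomal protein gene was called higher, rpl-11.2 (adjusted p = 0.0156, edgeR). The replicate numbers share no stated source. The deviations of same-numbered libraries had a correlation of 0.23, with only 2 pairs. The block changed no other ribosomal protein or translation list call. The count of positive ribosomal protein genes was 14 to 72 with 1 library left out, and the median -0.083 to 0.13. Without the filter, calls were 2 higher and 1 lower for initiation, 1 higher for elongation and 2 lower for the TOR pathway. With 1 library left out they were 0 to 1 higher and 0 to 1 lower for initiation and 0 to 2 lower for the TOR pathway. Those medians ran from -0.083 to 0.010 for initiation, -0.12 to 0.062 for elongation and termination, -0.096 to -0.0068 for the synthetases, -0.011 to 0.079 for mitochondrial ribosomal proteins, 0.011 to 0.094 for biogenesis and -0.20 to -0.095 for the TOR pathway. With total counts as the only scaling the medians changed sign to 0.0084 for initiation and 0.016 for elongation and termination. They were -0.11 for the TOR pathway, -0.014 for the synthetases, 0.078 for mitochondrial ribosomal proteins and 0.10 for biogenesis. The ribosomal protein median was then 0.064 with 66 genes positive, against 49 in the main fit. With DESeq2 size factors 43 of these genes were positive. The fit with total counts leaves out the TMM factors, which were 1.025 and 1.006 in OP50 + MH-1 and 0.966 and 1.005 in OP50. The cause of the shifts with 1 library left out was not tested. Of 37 named genes, 14 changed the sign of a log2 fold change in at least 1 of 12 alternatives, with no call on either side. What depth adds to the errors was not tested.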
